A study of Danio rerio with 4 samples.

Results

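The comparison described here set the hearts of injured larvae given SIS3 against the hearts of injured larvae given its vehicle, DMSO. It covers the genes listed in both injured libraries with a mean level of at least 5 FPKM (fragments per kilobase of transcript, scaled to the size of the library). These were 7492 of the 18231 genes listed anywhere in the series and are called members below.

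All larvae carried Tg(vmhc:mCherry-NTR), a transgene that puts nitroreductase under a promoter of the ventricular myosin heavy chain, so that the prodrug metronidazole (MTZ) becomes toxic in ventricular cardiomyocytes. The injured SIS3 group was exposed to MTZ at 5 mM for 4 hours, beginning 72 hours post fertilization, and then to 2 µM SIS3 between 76 and 124 hours. The injured DMSO group had the same MTZ exposure and 0.2% DMSO over the same span. Both were collected at 5 days post fertilization, 2 days after treatment. The uninjured SIS3 and uninjured DMSO groups, of the same line and age, had the same compounds without injury, and the sources used here do not say whether they also met MTZ. Each group had 1 library of total heart RNA. The total RNA was 1.95 µg for injured SIS3 hearts and 2.17 µg for injured DMSO hearts, and the number of hearts pooled per library is not stated in those sources.

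SIS3 blocks the phosphorylation of Smad3. TGF-β and activin ligands bind type II and type I receptor kinases, the type I receptor phosphorylates Smad2 and Smad3, and these enter the nucleus with Smad4 to act on genes of matrix, growth arrest and migration. Smad7 is an inhibitory Smad that the pathway itself induces. In the injured zebrafish heart the pathway is known for its part in transient matrix deposition by epicardial cells and fibroblasts and in cardiomyocyte proliferation.

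Most members differed little between the injured libraries. The median change was −0.008 on the log2 scale, the median absolute change was 0.159, and the 5th and 95th percentiles were −0.503 and 0.624. A change here is log2(injured SIS3 + 1) minus log2(injured DMSO + 1) in FPKM scaled between libraries, so it understates the fold of low genes, and levels are given as scaled FPKM. At 2-fold, 170 members were higher (2.27%) and 65 were lower (0.868%), 235 in either direction (3.14%). With 1 library a side there is no replicate check, and a call says only that these 2 libraries differed by that much. Of the higher members, 72 reached the mean of 5 FPKM through injured SIS3 alone, and 31 of the lower members through injured DMSO alone, so these had to differ to be counted. A further 15 genes listed only in injured SIS3 and 4 listed only in injured DMSO had means of at least 5 FPKM and are left out. At the edge of the rule, nfkb1 was just inside with a deposited mean of 5.0006 FPKM, and ccar1 just outside with 4.9957 FPKM.

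The injured libraries had a Pearson correlation of 0.948 across 7485 members listed in all 4 libraries. The uninjured SIS3 and DMSO libraries had 0.978, and pairs across injury had 0.889 to 0.902, as descriptions across genes that share each library's scaling. Lists of genes of liver, pancreas, muscle, skin and other tissues held 63 of the 170 higher members (37.1%). They held 1 of the 65 lower members (1.54%) and 151 of all members (2.02%). Among these lists, liver plasma proteins (median change 3.12) and pancreas and intestine (2.79) differed most, and skin and keratins little (0.09). The genes of these lists summed to 19620.1 FPKM in injured SIS3 and 12932 FPKM in injured DMSO. In uninjured SIS3 and uninjured DMSO they summed to 16032 and 19886 FPKM. Their part in the other differences was not tested.

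**Figure D1:**
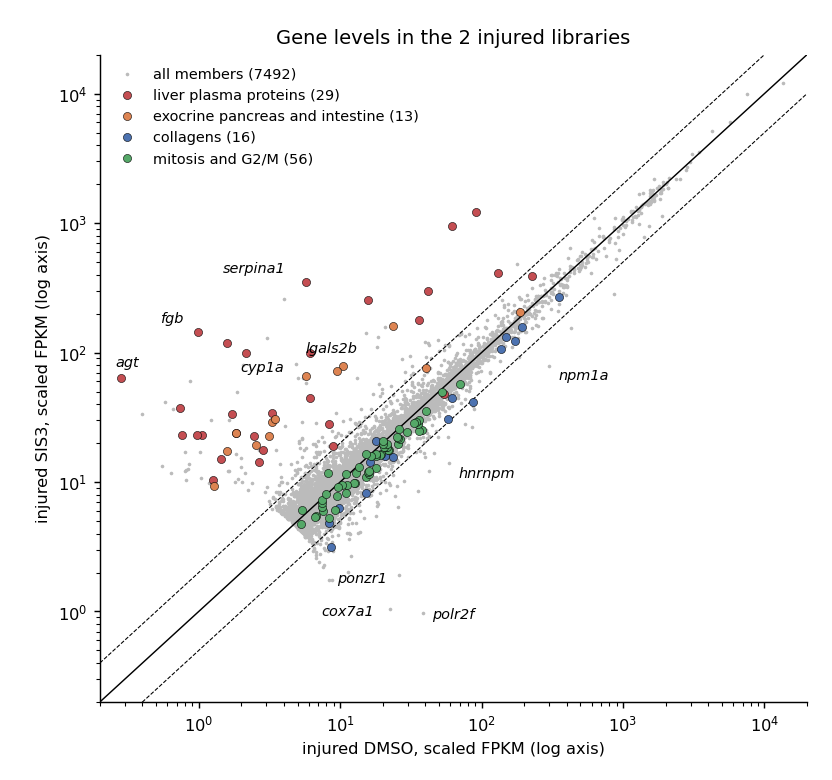
Scaled FPKM of each member in injured SIS3 (y, log axis) against injured DMSO (x, log axis), 1 point a gene, with 4 gene lists in colour. The solid line marks equal levels and the dashed lines 2-fold. Collagen points (blue) lie below the line in 15 of 16 cases and liver plasma protein points (red) above it in 28 of 29, while polr2f and cox7a1 lie far below it.

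The genes of the SIS3 target itself had similar levels in the injured libraries. Smad3a (ENSDARG00000036096, chromosome 7, events listed from 33831511 to 33878113, GRCz10) was at 7.46 FPKM in injured SIS3 and 8.11 FPKM in injured DMSO, a change of −0.11. Its copy smad3b was under the mean of 5, at 4.60 FPKM in injured SIS3 and 4.25 FPKM in injured DMSO. SIS3 acts on the protein's phosphorylation, which RNA levels do not measure. Among 20 members that encode TGF-β ligands, receptors and Smads, none was past 2-fold, 9 were above 0 against 48.6% of all members, and the median change was −0.05.

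The ligands and receptors differed in both directions. Tgfb1b, a TGF-β ligand, was at 10.1 FPKM in injured SIS3 and 14.1 FPKM in injured DMSO (−0.45), whereas tgfb2 was at 18.02 and 17.04 FPKM (0.08) in the same order. The most abundant ligand, tgfb3, was at 92.4 FPKM in injured SIS3 and 93.7 FPKM in injured DMSO (−0.02). The type I receptor of endothelial cells, acvrl1, was at 18.6 FPKM in injured SIS3 and 28.04 FPKM in injured DMSO, which made it the lowest of the list (−0.57). The activin receptor acvr1ba, the most abundant receptor of the list, was at 99.6 FPKM in injured SIS3 and 98.7 FPKM in injured DMSO. Inhbb, an activin subunit, was the highest of the list, at 5.85 FPKM in injured SIS3 and 3.86 FPKM in injured DMSO (0.49). The inhibitory Smads parted: smad7 was at 13.6 FPKM in injured SIS3 and 18.4 FPKM in injured DMSO (−0.41), and smad6b, an inhibitor of the BMP branch, at 67.7 and 56.2 FPKM (0.27). In the uninjured pair smad7 was at 12.4 FPKM with SIS3 and 17.3 FPKM with DMSO, a change of −0.46.

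Known TGF-β-induced genes lay mostly on the lower side, though none was past 2-fold. Of 23 members, 15 were below 0, and the median was −0.27 against −0.008 over all members. Cdkn1a, which encodes the p21 inhibitor of cyclin-dependent kinases, was at 21.7 FPKM in injured SIS3 and 41.4 FPKM in injured DMSO (−0.90). Cnn1b, a calponin of smooth muscle, was at 12.6 FPKM in injured SIS3 and 22.9 FPKM in injured DMSO (−0.81), and postnb, a periostin secreted by fibroblasts, at 25.4 and 32.4 FPKM (−0.34). Other classical targets lay above 0. The connective tissue growth factor gene ccn2a was at 17.5 FPKM in injured SIS3 and 17.1 FPKM in injured DMSO (0.03). The lysyl oxidase loxa, which cross-links collagen, was at 10.98 FPKM in injured SIS3 and 5.798 FPKM in injured DMSO (0.82; 0.21 in first exons).

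Collagen genes were lower in injured SIS3 than in injured DMSO with a single exception among the members. Of 16 collagen members, 15 were below 0, 2 were at least 2-fold lower and the median was −0.47. Of the 16, 2 reached the mean of 5 FPKM through injured DMSO alone, col11a1b among them. The 14 at 5 FPKM or more in both libraries had a median of −0.42, with 1 at least 2-fold lower. In the uninjured pair the same 16 had a median of 0.00, with 8 below 0. The summed level of all 37 collagen genes in the files was 1012 FPKM in injured SIS3 and 1349 FPKM in injured DMSO, against 612 FPKM in uninjured SIS3 and 656 FPKM in uninjured DMSO. The median of the list was below 0 under each of 8 alternative settings, between −0.52 and −0.38. In bulk hearts, fewer collagen-making cells and less collagen RNA per cell cannot be told apart.

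Collagen VI, a microfibril-forming collagen of the pericellular matrix, was the type with the lowest median. Col6a1 (ENSDARG00000074908, chromosome 11, events listed from 33733724 to 33802894) was at 41.5 FPKM in injured SIS3 and 86.7 FPKM in injured DMSO (−1.04). The change was −0.74 when only last exons were counted and −0.98 with a pseudocount of 5. Col6a2 was at 30.4 FPKM in injured SIS3 and 57.8 FPKM in injured DMSO (−0.90), and col6a4a at 14.2 and 16.2 FPKM (−0.18). Taken as a sum over these 3 members, collagen VI was at 86.2 FPKM in injured SIS3, 161 FPKM in injured DMSO, 45.6 FPKM in uninjured SIS3 and 42.5 FPKM in uninjured DMSO. The injured DMSO heart had the highest sum, and the injured SIS3 heart lay between it and both uninjured hearts.

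Fibrillar collagens, which carry tensile load, made up most of the collagen RNA. The type I chains were at 267 FPKM (col1a1a), 122 FPKM (col1a1b) and 159 FPKM (col1a2) in injured SIS3, against 353, 172 and 194 FPKM in the same order of genes in injured DMSO. Their changes were −0.40, −0.49 and −0.29. The type V chains that nucleate these fibrils were at 44.9 FPKM (col5a1) and 106 FPKM (col5a2a) in injured SIS3, against 61.5 and 138 FPKM in injured DMSO. Each of these 5 chains was lower in injured SIS3, and none was past 2-fold. Col11a1b was the lowest collagen by change, at 3.16 FPKM in injured SIS3 and 8.63 FPKM in injured DMSO (−1.21), but a pseudocount of 5 took it to −0.74 and last exons alone to −0.96. Among collagens that decorate fibrils, col12a1a was at 132 FPKM in injured SIS3 and 148 FPKM in injured DMSO (−0.17; 0.89 in last exons), and col12a1b at 8.18 and 15.3 FPKM (−0.83; −1.22 in first exons).

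Basement membrane collagens were lower in both injured hearts than in both uninjured hearts. Their 4 members summed to 56.99 FPKM in injured SIS3, 70.9 FPKM in injured DMSO, 160 FPKM in uninjured SIS3 and 208 FPKM in uninjured DMSO. Col4a1 was at 15.9 FPKM in injured SIS3 and 20.9 FPKM in injured DMSO (−0.38), and col4a2 at 15.7 and 23.6 FPKM (−0.56). Col18a1a, the precursor of endostatin, was the collagen member above 0, at 20.7 FPKM in injured SIS3 and 18.1 FPKM in injured DMSO (0.18).

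**Figure D2:**
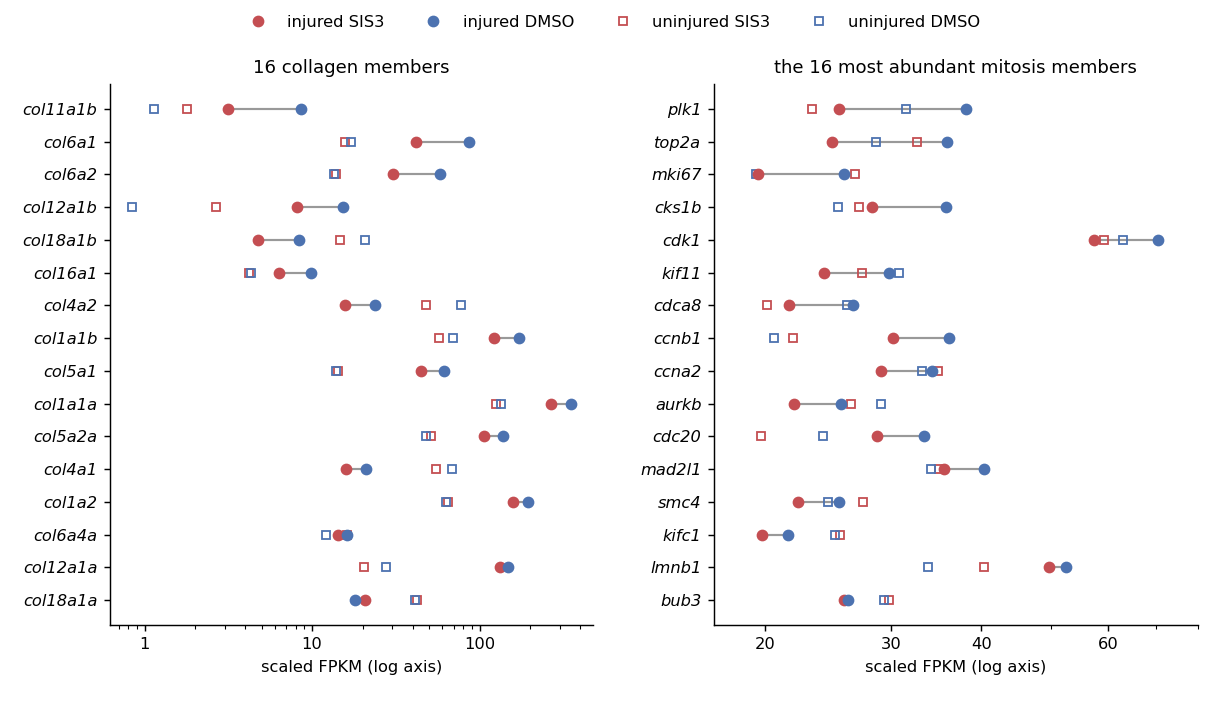
Scaled FPKM (x, log axis) of the 16 collagen members and of the 16 mitosis members with the highest mean level (rows, sorted by change), with injured libraries as filled circles joined by a line and uninjured libraries as open squares; red is SIS3 and blue DMSO. Injured SIS3 lies left of injured DMSO for 15 of the 16 collagens and for each of the 16 mitosis genes.

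Several single genes whose products fold or modify collagen chains also lay below 0, most of them picked after their values were seen. Serpinh1b, the collagen chaperone Hsp47, was at 20.5 FPKM in injured SIS3 and 38.9 FPKM in injured DMSO (−0.89), and its copy serpinh1a at 24.1 and 31.3 FPKM (−0.36). Fkbp10b, a prolyl isomerase that acts on procollagen, was at 6.44 FPKM in injured SIS3 and 25.8 FPKM in injured DMSO (−1.85). The prolyl hydroxylases p4ha1a (−0.57) and p4ha1b (−0.51) and the lysyl hydroxylases plod1a (−0.44) and plod2 (−0.35) lay below 0 as well. In the uninjured pair, fkbp10b was at 3.29 FPKM with SIS3 and 7.26 FPKM with DMSO (−0.95), while serpinh1b was at 12.3 and 11.8 FPKM.

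Enzymes that cut or cross-link matrix parted in direction. Of 34 members, 22 were below 0 and 3 were at least 2-fold higher, with a median of −0.17. Of the 34, 2 reached the mean of 5 FPKM through injured SIS3 alone, mmp9 among them, and 1 through injured DMSO alone. The 31 at 5 FPKM or more in both libraries had a median of −0.21, with 2 at least 2-fold higher. Mmp2, gelatinase A, was at 41.01 FPKM in injured SIS3 and 71.0 FPKM in injured DMSO (−0.78), and its membrane-bound activator mmp14b at 8.26 and 12.2 FPKM (−0.51). Mmp9, gelatinase B, was at 14.3 FPKM in injured SIS3 and 2.59 FPKM in injured DMSO (2.09), and the collagenase mmp13a at 12.6 and 5.02 FPKM (1.18; 0.82 with a pseudocount of 5). Timp2b, a tissue inhibitor of these proteases, was at 114 FPKM in injured SIS3 and 42.2 FPKM in injured DMSO (1.41), against 3.65 and 4.39 FPKM in uninjured SIS3 and uninjured DMSO. Mmp9, mmp13a and timp2b were therefore highest of the 4 libraries in injured SIS3, and mmp2 in injured DMSO.

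Non-collagen matrix proteins were lower in 21 of 32 cases, with none past 2-fold and a median of −0.15. Among the lowest, fbln5, a protein of elastic fibres, was at 8.82 FPKM in injured SIS3 and 17.2 FPKM in injured DMSO (−0.89; −1.22 in first exons), the microfibril gene mfap2 at 21.8 and 36.5 FPKM (−0.72), emilin1a at 7.56 and 13.1 FPKM (−0.72) and MFAP4 at 86.6 and 136 FPKM (−0.65). The wound matrix gene tncb, tenascin C, was at 13.2 FPKM in injured SIS3 and 23.3 FPKM in injured DMSO (−0.77; 0.10 in first exons), against 1.90 FPKM in uninjured SIS3 and 2.199 FPKM in uninjured DMSO. Fibronectin split by copy: fn1a was at 87.5 FPKM in injured SIS3 and 109.5 FPKM in injured DMSO (−0.32), whereas the more abundant fn1b was at 454 and 439 FPKM (0.05). The proteoglycan vcana was highest of this group, at 13.2 FPKM in injured SIS3 and 6.26 FPKM in injured DMSO (0.97; 1.08 with no pseudocount).

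Genes of epithelial-to-mesenchymal transition were lower in 14 of 18 cases, with a median of −0.27 and none past 2-fold. The transcription factors with the lowest changes were prrx1a, at 38.8 FPKM in injured SIS3 and 61.3 FPKM in injured DMSO (−0.65), and snai2, at 37.9 and 58.98 FPKM (−0.63; −0.38 in last exons). The related factor snai1a was at 5.64 FPKM in injured SIS3 and 7.68 FPKM in injured DMSO (−0.39), and twist1b at 24.5 and 29.7 FPKM (−0.27). Cdh2, the cadherin of cardiomyocytes and mesenchyme, differed little, at 136 FPKM in injured SIS3 and 142 FPKM in injured DMSO (−0.06). In the uninjured pair snai2 was at 15.06 FPKM with SIS3 and 14.3 FPKM with DMSO, and prrx1a at 4.70 and 4.49 FPKM.

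Epicardial and fibroblast genes had a list median of −0.29, with 21 of 26 members below 0. Of the 26, 2 reached the mean of 5 FPKM through injured DMSO alone, pdgfra among them. The 24 at 5 FPKM or more in both libraries had a median of −0.23. Pdgfra, the receptor of mesenchymal cells, was at 4.40 FPKM in injured SIS3 and 8.25 FPKM in injured DMSO (−0.78), and the epicardial factor tbx18 at 30.7 and 42.1 FPKM (−0.44). The secreted genes clu and mdka, high in both injured hearts, were at 209 and 414 FPKM in injured SIS3, against 346 and 591 FPKM in injured DMSO. In uninjured SIS3 they were at 6.31 and 51.5 FPKM, and in uninjured DMSO at 7.46 and 65.5 FPKM. The activated epicardium factor wt1b went against the list, at 31.7 FPKM in injured SIS3 and 25.8 FPKM in injured DMSO (0.29). Angpt1, a ligand of the endothelial receptor Tek, was in no list and was at 16.7 FPKM in injured SIS3 and 46.4 FPKM in injured DMSO (−1.43).

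Most mitotic genes were lower by less than 2-fold. Of 56 members of the mitosis and G2/M list, 50 were below 0, none was past 2-fold, and changes ran from −0.57 to 0.49 with a median of −0.21. Over all members 51.4% were below 0. The kinase plk1, needed for entry into and exit from mitosis, was at 25.3 FPKM in injured SIS3 and 38.0 FPKM in injured DMSO (−0.57). Mki67, which coats mitotic chromosomes, was at 19.6 FPKM in injured SIS3 and 25.7 FPKM in injured DMSO (−0.38). Cyclin B1, ccnb1, was at 30.1 FPKM in injured SIS3 and 36.1 FPKM in injured DMSO (−0.25), and its kinase cdk1 at 57.4 and 70.5 FPKM (−0.29). In the uninjured pair the same 56 genes had a median of 0.14, with mki67 at 26.7 FPKM with SIS3 and 19.5 FPKM with DMSO. The exceptions included prc1a, a bundler of the spindle midzone, at 11.8 FPKM in injured SIS3 and 8.14 FPKM in injured DMSO (0.49).

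Genes of DNA replication were nearer to 0, with 44 of 62 members below 0 and a median of −0.08. Pcna, the replication clamp, was at 246 FPKM in injured SIS3 and 280.1 FPKM in injured DMSO (−0.19). The clamp loader rfc5 was lowest, at 10.98 FPKM in injured SIS3 and 17.9 FPKM in injured DMSO (−0.66), and the helicase subunit mcm7 lay above 0, at 35.8 and 29.6 FPKM (0.27). Genes of p53 and arrest did not share a direction, with 13 of 22 above 0. Next to cdkn1a on the low side, ccng2, an atypical cyclin of quiescent cells, was at 13.04 FPKM in injured SIS3 and 2.00 FPKM in injured DMSO (2.23), and in the uninjured pair at 12.5 FPKM with SIS3 and 6.13 FPKM with DMSO. Of the 22, 2 reached the mean of 5 FPKM through injured SIS3 alone, ccng2 among them, so it had to be higher to be counted. None of the 20 at 5 FPKM or more in both libraries was past 2-fold.

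Contractile genes of the cardiac sarcomere list were mostly higher. Of 37 sarcomere members, 28 were above 0 and 1 was past 2-fold, with a median of 0.29. Both injured libraries were below both uninjured ones: the summed level of the 49 sarcomere genes in the files was 9924 FPKM in injured SIS3, 9312 FPKM in injured DMSO, 15834 FPKM in uninjured SIS3 and 17716 FPKM in uninjured DMSO. The M-band gene myom2a was at 32.5 FPKM in injured SIS3 and 17.6 FPKM in injured DMSO (0.85), and the myosin heavy chain myh7bb at 18.97 and 10.4 FPKM (0.81). The actin gene actc1b was at 115 FPKM in injured SIS3 and 58.4 FPKM in injured DMSO (0.96), and the regulatory light chain myl10 at 12.3 and 4.80 FPKM (1.2; 0.82 with a pseudocount of 5 and 0.32 in last exons). In the uninjured pair actc1b was at 81.4 FPKM with SIS3 and 165 FPKM with DMSO (−1.01), and the list median was −0.13. Cardiac troponin T, tnnt2a, was at 1085 FPKM in injured SIS3 and 874 FPKM in injured DMSO (0.31), and the atrial and ventricular light chain myl7 at 2563 and 2807 FPKM (−0.13). The troponin C gene tnnc1b was lowest, at 155.5 FPKM in injured SIS3 and 227 FPKM in injured DMSO (−0.54). The levels of fast skeletal muscle genes are given below, and their part in the contractile difference was not tested.

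The entry that holds the ventricular myosin heavy chain, vmhc in older naming and myh7 in RefSeq, was at 268 FPKM in injured SIS3 and 183 FPKM in injured DMSO. It is listed with 2 first-exon events. The event at chromosome 2, 24614237 to 24614260 on the minus strand, was at 83.8 FPKM in injured SIS3 and 79.4 FPKM in injured DMSO. That event lies at the downstream end of those listed for this gene, and whether it is a true start was not tested. The event at 24633949 to 24633992 was at 184.5 FPKM in injured SIS3 and 104 FPKM in injured DMSO. It held nearly all of the difference between the summed first-exon levels. Natriuretic peptides, which stressed cardiomyocytes secrete, were high in both injured hearts. Nppa was at 3531 FPKM in injured SIS3 and 3441 FPKM in injured DMSO (0.04), nppb at 1539.6 and 1826 FPKM (−0.25) and nppal at 173 and 204 FPKM (−0.23).

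Endothelial genes had a median of 0.08, with 21 of 32 members above 0. Kdrl, a Vegf receptor, was at 20.1 FPKM in injured SIS3 and 22.5 FPKM in injured DMSO (−0.16), the cadherin cdh5 at 38.4 and 44.2 FPKM (−0.20) and cd34 at 139 and 81.6 FPKM (0.76). Of 23 erythroid members, 15 were below 0 and none was past 2-fold, with a median of −0.24. The transcription factor klf1 was at 11.2 FPKM in injured SIS3 and 20.2 FPKM in injured DMSO (−0.79), the nuclear protein hemgn at 69.3 and 115 FPKM (−0.72) and the anion exchanger slc4a1a at 186 and 272 FPKM (−0.54). On the other side, urod, an enzyme of haem synthesis, was at 40.2 FPKM in injured SIS3 and 26.3 FPKM in injured DMSO (0.59). The α-globin gene hbae3 was at 5104 FPKM in injured SIS3 and 4244 FPKM in injured DMSO (0.27). The more abundant globin gene hbae1.3 was at 9845 FPKM in injured SIS3 and 7466 FPKM in injured DMSO, a change of 0.40 that was 1.27 in last exons alone.

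Most macrophage genes were lower, and the members at least 2-fold higher were apolipoprotein genes. Of 34 members, 23 were below 0, 5 were at least 2-fold lower and 2 at least 2-fold higher, with a median of −0.25. Of the 34, 4 reached the mean of 5 FPKM through injured DMSO alone and 1 through injured SIS3 alone. The 29 at 5 FPKM or more in both libraries had a median of −0.21, with 2 at least 2-fold lower and 2 at least 2-fold higher. Spi1a, the PU.1 factor of myeloid cells, was at 3.61 FPKM in injured SIS3 and 11.6 FPKM in injured DMSO (−1.44; −0.94 with a pseudocount of 5), and its copy spi1b at 5.18 and 9.08 FPKM (−0.71). The CSF-1 receptor genes, on which macrophages depend, were at 16.8 FPKM (csf1rb) and 10.98 FPKM (csf1ra) in injured SIS3, against 39.2 and 16.9 FPKM in injured DMSO. Lgals3bp.1, a secreted scavenger-receptor protein, was at 26.6 FPKM in injured SIS3 and 85.5 FPKM in injured DMSO (−1.65). The subunit c1qb was at 3.002 FPKM in injured SIS3 and 7.75 FPKM in injured DMSO, and the chemokine ccl34b.1 at 2.19 and 7.60 FPKM, but neither was past 2-fold with a pseudocount of 5 (−0.67 and −0.81).

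Not every macrophage gene shared that direction. The pore-forming gene mpeg1.2 was at 16.8 FPKM in injured SIS3 and 13.3 FPKM in injured DMSO (0.32), and the lysosomal protease ctsd at 154 and 108 FPKM (0.50). Apoeb was at 178 FPKM in injured SIS3 and 36.2 FPKM in injured DMSO (2.27), and apoc1 at 256 and 15.8 FPKM (3.94). Liver makes both apolipoproteins too, and both genes are also in the liver plasma protein list. Over all genes of the list in the files the sum was 1208 FPKM in injured SIS3 and 971 FPKM in injured DMSO, so the sum, which holds both apolipoproteins, ran against the median. The defining marker mpeg1.1 matched no entry.

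Neutrophil genes had a list median above 0. Of 12 neutrophil members, 9 were above 0 and 2 at least 2-fold higher, which were mmp9 and mmp13a, with a list median of 0.33. Mmp9 reached the mean through injured SIS3 alone. Lyz, the lysozyme of granulocytes, was at 101 FPKM in injured SIS3 and 91.9 FPKM in injured DMSO (0.13), and the attractant cxcl8a at 9.05 and 6.51 FPKM (0.42). Members on the lower side were fcer1gl, an adaptor of Fc receptors, at 35.1 FPKM in injured SIS3 and 55.6 FPKM in injured DMSO (−0.65), tcnbb at 13.7 and 20.8 FPKM (−0.57) and cxcl8b.1 at 12.3 and 14.4 FPKM (−0.21). Among 30 inflammation and wound genes 56.7% were above 0, against 48.6% of all members, with a median of 0.12. Of the 30, 5 were at least 2-fold higher, against 2.27% of all members, and none was lower. Mmp9 alone reached the mean of 5 FPKM through injured SIS3 only, and 3 members through injured DMSO only. The 26 at 5 FPKM or more in both libraries had a median of 0.19, with 4 at least 2-fold higher. The 5 include mmp9, mmp13a and timp2b, already counted among the matrix enzymes. The others were c3a.1, a complement C3 gene, at 63.3 FPKM in injured SIS3 and 13.1 FPKM in injured DMSO (2.19), and hamp. The iron regulator hamp was at 19.1 FPKM in injured SIS3 and 8.84 FPKM in injured DMSO (1.03; 0.80 with a pseudocount of 5). Liver expresses both c3a.1 and hamp.

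**Figure D3:**
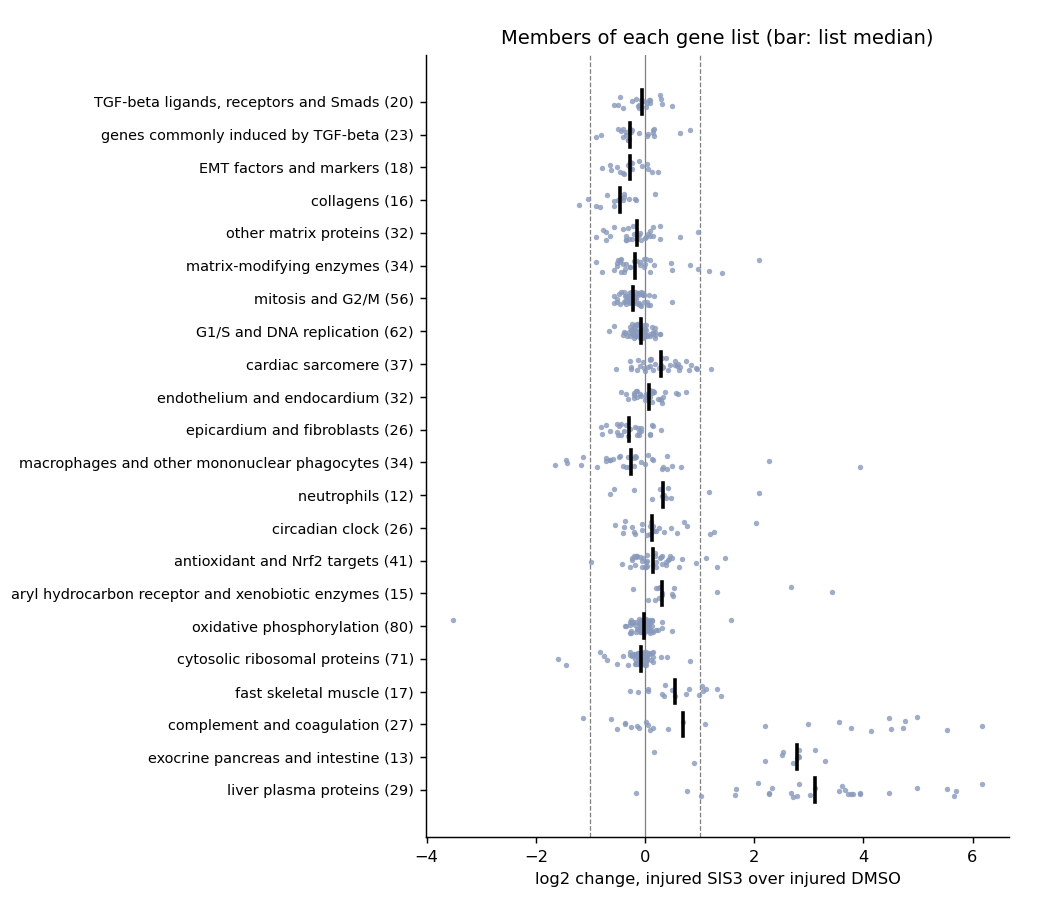
Log2 change of injured SIS3 over injured DMSO (x) for members of 22 gene lists (rows, member count in brackets), 1 point a gene, with the list median as a black bar and dashed lines at 2-fold. Collagens, epicardial genes and macrophage genes have medians of −0.47, −0.29 and −0.25, and liver plasma proteins 3.12.

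Genes of the aryl hydrocarbon receptor (AHR) and of drug metabolism were higher in 14 of 15 cases, with 3 past 2-fold (cyp1a, ces2a and nqo1) and a median of 0.31. Of the 15, 2 reached the mean of 5 FPKM through injured SIS3 alone, nqo1 among them. The 13 at 5 FPKM or more in both libraries had a median of 0.28, with 2 at least 2-fold higher. In the uninjured pair the same 15 had a median of 0.00, with 8 above 0. Cyp1a (ENSDARG00000098315, chromosome 18, events listed from 5738730 to 5749620), the oxidase most tightly driven by the AHR, was at 63.7 FPKM in injured SIS3 and 5.03 FPKM in injured DMSO (3.42). In the uninjured pair it was at 53.3 FPKM with SIS3 and 21.8 FPKM with DMSO (1.25), so injured DMSO had the lowest of the 4 levels. Cyp1b1, a further AHR target, was under the mean of 5, at 3.68 FPKM in injured SIS3 and 1.98 FPKM in injured DMSO, and 8.89 and 5.35 FPKM in uninjured SIS3 and uninjured DMSO. The repressor tiparp was at 15.8 FPKM in injured SIS3 and 13.5 FPKM in injured DMSO (0.21; −0.08 in first exons), and the receptor ahr2 at 25.5 and 21.6 FPKM (0.23). The carboxylesterase ces2a was at 44.2 FPKM in injured SIS3 and 6.11 FPKM in injured DMSO (2.67). In uninjured SIS3 and uninjured DMSO it was at 7.04 and 13.5 FPKM, an opposite order. Fabp10a, a liver gene, was at 299.4 FPKM in injured SIS3 and 41.57 FPKM in injured DMSO. Its uninjured levels were 43.33 FPKM with SIS3 and 94.99 FPKM with DMSO. For ces2a and fabp10a, injured SIS3 was highest and uninjured DMSO next, with injured DMSO and uninjured SIS3 close to each other. For cyp1a, injured SIS3 was highest and uninjured SIS3 next. The part of liver RNA in this list was not tested.

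Antioxidant genes, many of them targets of the factor Nrf2, were above 0 in 27 of 41 cases, with a median of 0.14. Gpx4a, which reduces lipid peroxides, was at 117.5 FPKM in injured SIS3 and 41.99 FPKM in injured DMSO (1.46). The quinone reductase nqo1 was at 10.95 FPKM in injured SIS3 and 3.80 FPKM in injured DMSO (1.32), and the autophagy receptor sqstm1 at 36.6 and 16.4 FPKM (1.11). With a pseudocount of 5, nqo1 (0.86) and sqstm1 (0.96) were under 2-fold. The peroxiredoxin prdx1 was at 113 FPKM in injured SIS3 and 58.5 FPKM in injured DMSO (0.93; 0.20 in last exons), whereas gpx7, an oxidase of the endoplasmic reticulum, was at 3.61 and 8.18 FPKM (−0.99; −1.18 with no pseudocount).

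Clock genes held 3 members past 2-fold among 26, all higher, and 17 were above 0 (median 0.12). Nr1d1, the Rev-erbα repressor, was at 11.7 FPKM in injured SIS3, 2.11 FPKM in injured DMSO, 19.6 FPKM in uninjured SIS3 and 19.9 FPKM in uninjured DMSO. Per2 was at 22.3 FPKM in injured SIS3, 9.18 FPKM in injured DMSO, 25.1 FPKM in uninjured SIS3 and 19.7 FPKM in uninjured DMSO. Cry5, a photolyase-related gene, was at 8.41 FPKM in injured SIS3, 2.93 FPKM in injured DMSO, 7.70 FPKM in uninjured SIS3 and 5.54 FPKM in uninjured DMSO. For all 3 the injured DMSO heart was the lowest of the libraries. The change of per2 was 1.19, and in first exons alone, which are at a low level, it was −2.10, the opposite direction. With a pseudocount of 5, per2 (0.94) and cry5 (0.76) were under 2-fold. Nr1d1 and cry5 reached the mean of 5 FPKM through injured SIS3 alone. The sources used here do not give the light cycle or the hour of collection.

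Mitochondrial respiration genes had a list median near that of all members, and 2 of 80 were past 2-fold in opposite directions. Cox7a1, the heart and muscle form of a cytochrome oxidase subunit, was at 1.05 FPKM in injured SIS3 and 22.6 FPKM in injured DMSO (−3.52), against 95.97 and 131.5 FPKM in uninjured SIS3 and uninjured DMSO. Its counterpart cox7a2a was at 185 FPKM in injured SIS3 and 237.5 FPKM in injured DMSO (−0.36). Cyc1, cytochrome c1 of complex III, was at 120 FPKM in injured SIS3 and 39.6 FPKM in injured DMSO (1.57). The list median was −0.02, and in the uninjured pair −0.32. Glycolysis genes were above 0 in 27 of 36 cases (median 0.26). The liver pyruvate kinase pklr was at 17.2 FPKM in injured SIS3 and 1.029 FPKM in injured DMSO (3.17). The β-oxidation enzyme acadm was at 137 FPKM in injured SIS3 and 69.5 FPKM in injured DMSO (0.97).

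Single genes of the ribosome and nucleolus stood far from lists that hardly differed. The 71 ribosomal protein members had a median of −0.08 with 50 below 0, and the 78 ribosome biogenesis members a median of 0.04. Rpl36 was at 284 FPKM in injured SIS3 and 866 FPKM in injured DMSO (−1.60), and rps28 at 155 and 426.5 FPKM (−1.45). Rps18 was highest of the list, at 1103 FPKM in injured SIS3 and 624 FPKM in injured DMSO (0.82). Npm1a, nucleophosmin, a chaperone of ribosome assembly, was at 78.9 FPKM in injured SIS3, 302 FPKM in injured DMSO, 114 FPKM in uninjured SIS3 and 103 FPKM in uninjured DMSO (−1.92 in the injured pair; −1.02 in first exons). The injured DMSO heart thus had the high value. The small-subunit assembly factors pno1 and wdr3 went the other way, at 109 and 17.5 FPKM in injured SIS3, against 18.1 and 3.50 FPKM in injured DMSO. The splicing factor hnrnpm was at 13.9 FPKM in injured SIS3 and 58.9 FPKM in injured DMSO (−2.01).

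Among members with a gene name, the largest differences were in genes that hepatocytes secrete. Of 29 liver plasma protein members, 27 were at least 2-fold higher in injured SIS3, with a median of 3.12, and 16 of the 29 reached the mean of 5 through injured SIS3 alone. The 13 members at 5 FPKM or more in both libraries had a median of 2.67. Over all 56 genes of the list in the files, the sum was 5114 FPKM in injured SIS3, 727 FPKM in injured DMSO, 923 FPKM in uninjured SIS3 and 1477 FPKM in uninjured DMSO, and 19 of the 56 were not listed in injured DMSO. The fibrinogen chains, precursors of the clot, were at 143 FPKM (fgb), 118 FPKM (fgg) and 99.2 FPKM (fga) in injured SIS3, against 0.990, 1.59 and 2.15 FPKM in the same order of genes in injured DMSO. Apoa2, a protein of high-density lipoprotein, was at 954 FPKM in injured SIS3 and 61.6 FPKM in injured DMSO (3.93), and fabp10a, the liver fatty acid-binding protein, at 299 and 41.6 FPKM (2.82). Injured SIS3 was the highest of the 4 libraries for each of these 5 genes, and injured DMSO the lowest.

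Liver enzymes and complement genes were split. Of 24 enzyme members, 9 were at least 2-fold higher with a median of 0.51, and 7 of the 24 reached the mean through injured SIS3 alone. The 17 enzyme members at 5 FPKM or more in both libraries had a median of 0.25, with 3 at least 2-fold higher. Among the 8 enzyme members with a mean of at least 20 FPKM the median was −0.01. Of 27 complement and coagulation members, 13 were at least 2-fold higher and 11 of these 27 reached the mean through injured SIS3 alone. The fibrinogen genes are in this list as well as the preceding one. The 15 at 5 FPKM or more in both libraries had a median of 0.02. C9, of the membrane attack complex, was at 79.5 FPKM in injured SIS3 and 2.05 FPKM in injured DMSO (4.72), and cfb, complement factor B, at 41.7 and 0.574 FPKM (4.76). The terminal components c6.2 and c7a were at 343 and 186 FPKM in injured SIS3, against 321 and 267 FPKM in injured DMSO. The change of c6.2 was 0.10, and −0.09 in last exons.

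Digestive and muscle genes were mostly higher too, with list medians (2.79 and 0.55) below that of liver plasma proteins (3.12). All 13 members of the pancreas and intestine list lay above 0, 11 of them past 2-fold, and 7 reached the mean through injured SIS3 alone. Their order across libraries was not that of the liver genes: the list summed to 831 FPKM in injured SIS3, 302 FPKM in injured DMSO, 2691 FPKM in uninjured SIS3 and 2219 FPKM in uninjured DMSO. Prss1, trypsin, was at 78.1 FPKM in injured SIS3, 10.4 FPKM in injured DMSO, 394 FPKM in uninjured SIS3 and 357 FPKM in uninjured DMSO. Of 17 fast muscle members, 15 were above 0 (88.2%, against 48.6% of all members), with a median of 0.55. At 2-fold, 5 were higher, against 2.27% of all members. Of the 17, 3 reached the mean of 5 FPKM through injured SIS3 alone. The 14 at 5 FPKM or more in both libraries had a median of 0.43, with 4 at least 2-fold higher. The muscle creatine kinase ckma was at 332 FPKM in injured SIS3 and 261 FPKM in injured DMSO (0.35), and the parvalbumin pvalb2 at 124 and 49.5 FPKM (1.31; −0.03 in first exons). The 43 muscle genes in the files summed to 3363 FPKM in injured SIS3 and 2675 FPKM in injured DMSO, with 5639 FPKM in uninjured SIS3 and 7084 FPKM in uninjured DMSO.

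Skin genes differed by gene, and epithelial junction genes lay mostly above 0. Of 26 skin members, 17 were above 0 and 4 at least 2-fold higher, none lower, with a median of 0.09. The skin list summed to 6744 FPKM in injured SIS3 and 6490.0 FPKM in injured DMSO. Of 17 junction members, 15 were above 0 (88.2%, against 48.6% of all members), and the median was 0.33. At 2-fold, 3 junction members were higher and none lower. Of the 17, 2 reached the mean of 5 FPKM through injured SIS3 alone. The keratin krt4 was at 210.3 FPKM in injured SIS3 and 192 FPKM in injured DMSO (0.13) and krt5 at 47.2 and 67.9 FPKM (−0.52), whereas the claudin cldni was at 51.98 and 19.8 FPKM (1.35) and epcam at 17.02 and 6.94 FPKM (1.18; 0.88 with a pseudocount of 5). Among defining markers of still other tissues, the neuronal elavl3 and the intestinal vil1 were listed in neither injured library. The other marker of each of these tissues was listed in both, at a low level. The neuronal gad1b was at 1.65 FPKM in injured SIS3 and 0.823 FPKM in injured DMSO, and the intestinal fabp2 at 2.03 and 1.46 FPKM. The cone gene gnat2 was at 1.74 FPKM in injured SIS3 and not listed in injured DMSO. Of 66 neural, lens and retina genes in the files, 51 were not listed in injured DMSO, and the list summed to 316 FPKM in injured SIS3 and 218.1 FPKM in injured DMSO. The defining markers cela1.1, mylpfa, myhz2, opn1mw1, tcf21, mpx and alas2 matched no entry. Cardiomyocyte, endothelial and erythrocyte markers were present in both, as given above. Without all genes of these other-tissue lists, 107 of 7341 members were at least 2-fold higher and 64 lower, and the median change was −0.011. These lists do not hold every gene of such tissues. The liver gene itih3b.2 (5.03), for example, is in no list and was still counted.

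**Figure D4:**
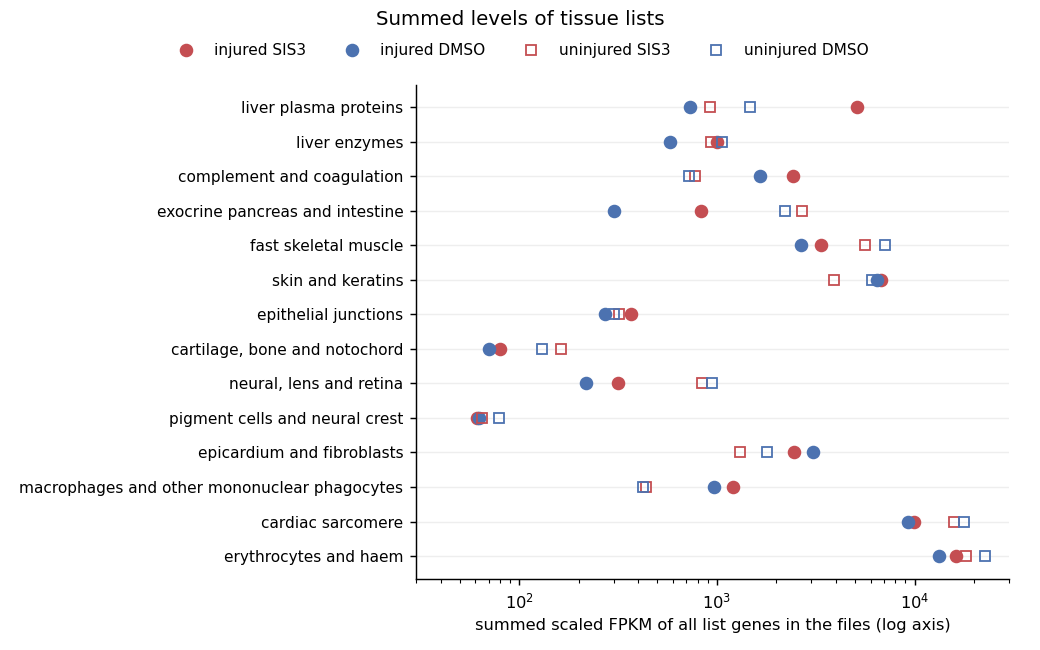
Summed scaled FPKM (x, log axis) of all genes of 14 lists found in the files (rows), in injured libraries (filled circles) and uninjured libraries (open squares), with SIS3 in red and DMSO in blue. Liver plasma proteins sum to 5114 FPKM in injured SIS3, the highest of the 4 libraries, while pancreas and muscle lists are highest in the uninjured hearts.

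Of the 65 lower members 52 were in no list, a share near that of all members, 5843 of 7492. Polr2f, a small subunit shared by the nuclear RNA polymerases, was lowest of all named members, at 0.967 FPKM in injured SIS3 and 38.2 FPKM in injured DMSO (−4.32). Ponzr1, of the plac8 family, was at 1.90 FPKM in injured SIS3 and 26.02 FPKM in injured DMSO (−3.22), and avpi1, a vasopressin-induced gene, at 2.01 and 11.4 FPKM (−2.04). BICC1, an RNA-binding protein, was at 8.47 FPKM in injured SIS3 and 35.3 FPKM in injured DMSO (−1.94), and the small GTPase gene rap2b at 7.79 and 24.6 FPKM (−1.54). Mettl5, a methyltransferase of ribosomal RNA, was at 4.04 FPKM in injured SIS3 and 13.4 FPKM in injured DMSO (−1.52). The aldo-keto reductase akr1a1b was at 10.1 FPKM in injured SIS3 and 28.4 FPKM in injured DMSO (−1.40). Chchd3b, of the cristae-organizing MICOS complex, was at 5.47 and 17.9 FPKM (−1.55) in the same order, but −0.54 in first exons alone.

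The tissue lists do not hold every gene of such tissues, and the part of other tissues in members outside them was not tested. Among higher members outside the tissue lists, lgals2b, a galectin, was at 81.3 FPKM in injured SIS3 and 4.89 FPKM in injured DMSO (3.81). The insulin-like growth factor-binding gene igfbp1b was at 11.7 FPKM in injured SIS3 and 0.632 FPKM in injured DMSO (2.96). APOD, apolipoprotein D, was at 30.1 FPKM in injured SIS3 and 1.63 FPKM in injured DMSO (3.57), tcnba, a cobalamin carrier, at 12.13 and 0.800 FPKM (2.87), and gatm, which makes the creatine precursor, at 26.9 and 4.06 FPKM (2.47). Of sterol synthesis genes, msmo1 was at 13.9 FPKM in injured SIS3 and 3.75 FPKM in injured DMSO (1.65), and hmgcs1 at 11.3 and 4.80 FPKM (1.08; 0.68 in last exons). Pck1, which commits carbon to gluconeogenesis, was at 12.2 FPKM in injured SIS3 and 1.603 FPKM in injured DMSO (2.34), against 10.1 and 16.5 FPKM in uninjured SIS3 and uninjured DMSO. Igfbp1b (−0.94) and gatm (−0.60) were also lower with SIS3 in the uninjured pair, while APOD (0.73) and tcnba (0.83) were higher there. Igfbp1b, APOD, tcnba, gatm, msmo1 and pck1 reached the mean of 5 FPKM through injured SIS3 alone, so these had to be higher to be counted.

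The uninjured SIS3 and DMSO libraries share none with the injured pair, so the members can be followed there. Few differed the same way in both. Of 7485 members listed in all 4 libraries, 55 were at least 2-fold higher with SIS3 in the uninjured pair (0.735%) and 86 lower (1.15%). Higher in both pairs were 5 genes, which is 2.96% of the 169 higher after injury and 9.09% of the 55. Lower in both were 8, which is 12.7% of the 63 lower after injury and 9.30% of the 86. The changes of the pairs had a Pearson correlation of −0.003 across these members, and 0.062 without the other-tissue lists, as a description.

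Those higher in both were cyp1a, lgals2b, si:dkey-97i18.5 and 2 entries without a name. One of these, ENSDARG00000101479 on chromosome 2, was at 257 FPKM in injured SIS3, 4.01 FPKM in injured DMSO, 5.25 FPKM in uninjured SIS3 and 1.21 FPKM in uninjured DMSO, and its change after injury (5.69) ranks with the highest named genes. The other, ENSDARG00000098957, was at 73.9 FPKM in injured SIS3 and 2.62 FPKM in injured DMSO (4.37). Lgals2b was at 81.3 FPKM in injured SIS3, 4.89 FPKM in injured DMSO, 153 FPKM in uninjured SIS3 and 11.12 FPKM in uninjured DMSO, so both SIS3 hearts were above both DMSO hearts. Those lower in both were polr2f, ponzr1, avpi1, chchd3b, mettl5, prrc2a, ptp4a1 and 1 entry named only by its clone. Polr2f was at 0.967 FPKM in injured SIS3, 38.2 FPKM in injured DMSO, 2.80 FPKM in uninjured SIS3 and 35.3 FPKM in uninjured DMSO. Mettl5 was at 4.04 FPKM in injured SIS3, 13.4 FPKM in injured DMSO, 2.27 FPKM in uninjured SIS3 and 14.02 FPKM in uninjured DMSO. Ptp4a1, a tyrosine phosphatase gene, was at 22.2 FPKM in injured SIS3, 48.9 FPKM in injured DMSO, 19.6 FPKM in uninjured SIS3 and 45.4 FPKM in uninjured DMSO. For polr2f, mettl5 and ptp4a1 both SIS3 hearts lay below both DMSO hearts. With a pseudocount of 5, ptp4a1 changed by −0.99 after injury, and in last exons by −0.76.

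Some members differed in opposite directions. Of the 169 members higher after injury, 16 (9.47%) were at least 2-fold lower with SIS3 in the uninjured pair. Among all 7485 members listed in the 4 libraries, 1.15% were. Agt, angiotensinogen, fabp10a and the parvalbumin pvalb2 were among the 16. Of the 63 lower after injury, 1 (1.59%) was at least 2-fold higher in the uninjured pair, against 0.735% of the 7485 members. It was add3a, an adducin of the membrane skeleton. Add3a was at 4.06 FPKM in injured SIS3, 11.6 FPKM in injured DMSO, 45.1 FPKM in uninjured SIS3 and 11.7 FPKM in uninjured DMSO. Its change of −1.31 after injury was −0.87 with a pseudocount of 5.

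**Figure D5:**
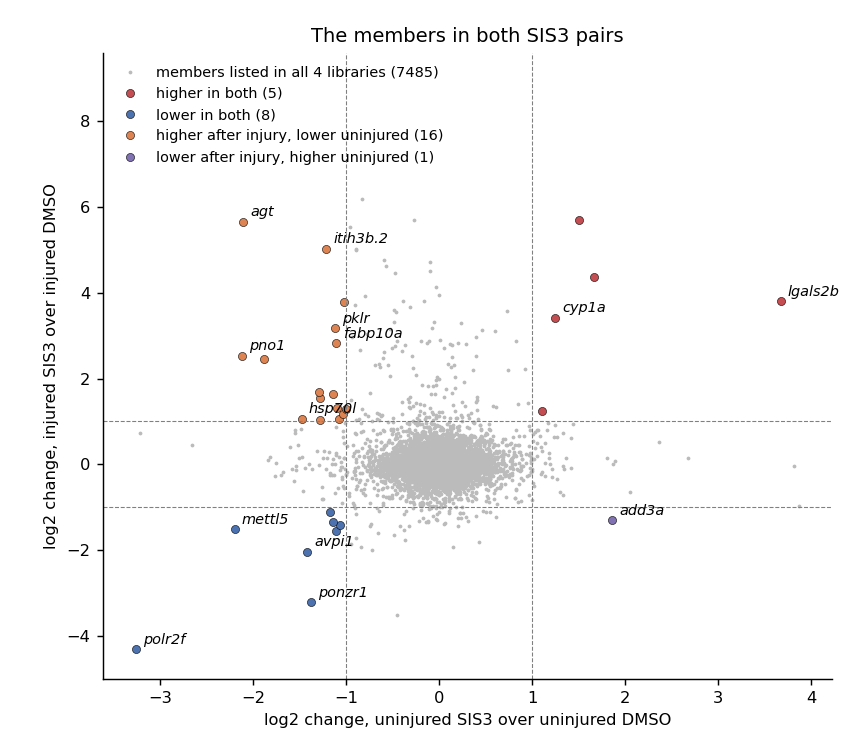
Log2 change of injured SIS3 over injured DMSO (y) against that of uninjured SIS3 over uninjured DMSO (x), 1 point for each of 7485 members listed in all 4 libraries, with dashed lines at 2-fold. Coloured points are past 2-fold in both pairs: 5 higher in both, 8 lower in both, 16 higher after injury and lower without, and 1 the reverse.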

How the data were processed

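Hearts of zebrafish larvae were profiled as 4 bulk RNA libraries, 1 per group, so no test was possible. The authors deposited, per the file headers, FPKM values of transcript start and end events, by gene. The tools listed are HISAT2 2.0.5, CASAVA 1.8 and HTSeq 0.6.1 with the build GRCz10, per the submitters' processing notes. FPKM hold no read counts, so depth and counting error are unknown. Repeated rows were removed, and values were summed over a gene's first exons and over its last exons, the larger sum being its level. Libraries listed 14587 to 16786 genes. Levels were scaled by the median of ratios over the 4 libraries, and changes are log2(level + 1) differences. A call is a change of at least 2-fold. Symbols came from the supplied tables, and 17251 of 18231 identifiers had one. Copies sharing a symbol were told apart by their neighbours in RefSeq. Genes of a single exon carry no such events and were not analysed here.

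The members and the 61 gene lists were chosen with earlier results of these data known. Among members with a symbol other than a clone name, genes were named by rule: the 15 highest and 15 lowest members, the 10 highest and 10 lowest in no list, the 5 most abundant, up to 4 a list and 20 whatever their value. Any other gene named was chosen after its values were seen. The computation was tested on simulated data and used Python 3.11.15, NumPy 2.4.6 and pandas 2.3.3. The alternatives were other pseudocounts, scalings, level minimums and exon sums. Results for a few genes are not reported here.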

Additional observations from a re-analysis of the deposited data

Results flagged for a closer look

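Each of the following named members was at least 2-fold higher with SIS3 than with DMSO after injury and at least 2-fold lower with SIS3 without injury. With 1 library a group the difference between the pairs was not tested. Liver genes were among them: agt, angiotensinogen, changed by 5.66 after injury and −2.11 without on the log2 scale, itih3b.2, an inter-α-trypsin inhibitor chain, by 5.03 and −1.22, and fabp10a by 2.82 and −1.11. The liver pyruvate kinase pklr changed by 3.17 after injury and −1.12 without. Fast muscle genes did likewise, with the parvalbumin pvalb2 at 1.31 and −1.10 and the troponin tnnt3b at 1.06 and −1.08. In first exons alone the injured changes of pvalb2 (−0.03) and tnnt3b (0.00) were near 0. The ribosome assembly factor pno1 changed by 2.53 after injury and −2.12 without, the RNA-binding gene rbpms2b by 1.03 and −1.28, and the inducible chaperone hsp70l by 1.06 and −1.48. The injured values of tnnt3b (0.88), rbpms2b (0.98) and hsp70l (0.66) were under 2-fold with a pseudocount of 5.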

How the results depend on the processing

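No paired analysis was possible because each group has 1 library and the groups share only replicate number 1. With 1 library a side no alternative gives a test. The numbers of members at least 2-fold higher and lower were 170 and 65 of 7492, and moved with the number of genes that the level minimum admitted. A mean of at least 1 FPKM gave 275 and 106 of 12355 genes. At least 20 FPKM gave 65 and 19 of 2675 genes. Of the calls at these minimums, 72.2% and 77.4% were higher. A pseudocount of 5 left 27 lower members, and 81.5% of its calls were higher, against 72.3% with a pseudocount of 1 and 67.5% with none or without scaling. Without the genes of other-tissue lists, an alternative chosen after seeing the data, 107 were higher, with itih3b.2, a liver gene in no list, still counted. The median of liver plasma proteins (3.12) was 3.69 with no pseudocount and in first exons alone, 2.23 with a pseudocount of 5, and 2.75 and 3.81 at minimums of 1 and 20 FPKM. The pancreas and intestine median (2.79) was 2.03 with a pseudocount of 5 and 2.53 at a minimum of 1 FPKM. Of the 61 lists, 15 had a median that did not keep its sign. They included −0.14 for retinoic acid and nuclear receptor targets in first exons and −0.01 for liver enzymes at a minimum of 20 FPKM, where 8 members were left. The other 13 had medians between −0.07 and 0.04, which ran from −0.22 to 0.27 over the alternatives. Of the 91 members named by rule past 2-fold, 69 stayed past it under each alternative in which they met the level minimum, which was 5 to 8 alternatives a gene. Below that minimum, the first-exon changes of per2 (−2.10) and pvalb2 (−0.03) were on the other side of 0.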

Other observations

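Signalling lists other than TGF-β held few members past 2-fold, and their medians were near 0. Of 21 BMP pathway and Id members, 11 were above 0 and the median was 0.00 on the log2 scale, with hamp above. The ligand bmp6 was at 3.84 FPKM in injured SIS3 and 8.77 FPKM in injured DMSO (−1.01; −0.64 with a pseudocount of 5), whereas bmp10, a ligand of the trabecular myocardium, was at 16.7 and 11.6 FPKM (0.49). The inhibitor of DNA binding id2b was at 164 FPKM in injured SIS3 and 241 FPKM in injured DMSO (−0.55). None of 18 Wnt and 11 Notch members was past 2-fold, with medians of 0.01 and 0.06. The Wnt enhancer rspo3 was at 38.2 FPKM in injured SIS3 and 57.5 FPKM in injured DMSO (−0.58). Under other settings the BMP and Wnt medians took either sign.

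Cardiac transcription factors and natriuretic peptides had a median of −0.01, and none of 25 was past 2-fold. The factor gata4 was at 18.3 FPKM in injured SIS3 and 24.7 FPKM in injured DMSO (−0.41), and nr2f2, a factor of atrial and venous identity, at 6.10 and 9.09 FPKM (−0.51). The repressor tbx2b, of the atrioventricular canal, was at 24.3 FPKM in injured SIS3 and 14.99 FPKM in injured DMSO (0.66). Chaperones of the endoplasmic reticulum parted by copy: calr was at 56.7 FPKM in injured SIS3 and 32.3 FPKM in injured DMSO (0.79), and calr3b at 70.5 and 114.5 FPKM (−0.69). The lysosome list had 27 of 58 members above 0, 31 below 0 and a median of −0.04. Its only member past 2-fold was sqstm1 (1.11). On the lower side, the progranulin genes grna and grna.1 were at 3.11 and 7.25 FPKM in injured SIS3, against 6.55 and 11.95 FPKM in injured DMSO.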
